A study of Mus musculus with 8 samples.

Results

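Collagen chains were chosen from the deposited gene table by name and biotype: a protein-coding gene whose symbol was Col, a number, the letter a and a number. The rule found 44 chains among 54532 genes, of which 22046 were protein coding. They were split into 11 fibrillar chains, 6 basement membrane chains (type IV) and 27 other chains. The other chains were 9 fibril-associated, 6 beaded filament (type VI), 4 transmembrane, 3 short-chain network and 2 multiplexin chains, with Col7a1 (the anchoring fibril collagen), Col26a1 and Col28a1 left over. Chain genes were counted whatever cell made them, since RNA came from whole liver.

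RNA-seq was performed on livers of 8 mice, 4 METTL3-HKD and 4 METTL3-Flox, all collected after 1 h of partial liver ischemia and 6 h of reperfusion. METTL3-HKD (hepatocyte-specific METTL3 knockdown) mice were METTL3 flox/-; Alb-iCre, in which a Cre driven by the albumin promoter acts in hepatocytes on an allele with exon 4 between loxP sites. METTL3-Flox mice were METTL3 flox/flox without Cre, so the groups also differ in the number of floxed alleles. Both came from crosses on a C57BL/6 background and were bred as littermates, the age of these 8 mice is not given in the sources used here, and the knockdown is heterozygous because mice with both alleles deleted died young. No sham-operated liver was analysed here, so every level given is a level after ischemia and reperfusion. METTL3 is the enzyme that writes N6-methyladenosine on mRNA, and the comparison asks what its reduction in hepatocytes does to the liver transcriptome after reperfusion. Mettl3 itself was at 1.56, 1.39, 1.17 and 1.198 FPKM in the METTL3-HKD group (livers 1 to 4, the order used throughout). It was at 1.84, 1.16, 1.45 and 1.54 FPKM in the METTL3-Flox group, so the groups overlapped (log2 fold change -0.16, limma adjusted p = 0.556). These values cover the whole gene in whole liver, so loss of exon 4 in hepatocytes was not tested by them. The paper reports reduced METTL3 in the liver of METTL3-HKD mice.

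Collagens are extracellular proteins built of 3 chains wound into a triple helix, and each chain carries glycine at the first place of every triplet along the helix. Fibrillar collagens have 1 long unbroken helix and pack into fibers, type IV collagen has a helix broken at many places and forms the sheet-like net of basement membranes, and fibril-associated collagens decorate fiber surfaces. In liver, stellate cells and portal fibroblasts are the main makers of fibrillar collagen, sinusoids have little continuous basement membrane, and Col18a1 is known to be made by hepatocytes. Fibrillar collagen accumulation is a feature of chronic injury and fibrosis, while the time studied here was hours.

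The difference between the classes can be read in the coding sequence. Below are 72 bases of Col1a1, from the start of its longest run of Gly-X-Y triplets, and 72 bases of Col4a1, from the last triplets of its longest run into the interruption after it. Capitals mark the glycine codons that open each triplet, and in Col4a1 the last 9 codons, 27 bases from ctcggc on, follow the run. The full length of the interruption was not measured. The bases are from GRCm38, joined over exons of the longest coding transcript in GENCODE M21: Col1a1 codons 168 to 191, exons 6 to 8, chr11:94939451-94939921, plus strand, and Col4a1 codons 148 to 171, exons 8 and 9, chr8:11244525-11245084, minus strand.
Col1a1: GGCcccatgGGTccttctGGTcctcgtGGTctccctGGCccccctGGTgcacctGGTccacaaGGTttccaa
Col4a1: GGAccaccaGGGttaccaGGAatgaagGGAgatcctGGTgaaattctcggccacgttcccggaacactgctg
Over the chains tested below, the longest unbroken run was 217 to 344 triplets in the 7 fibrillar chains, 40 to 66 in the 3 type IV chains and 30 to 87 in the 11 other chains. The fibrillar chains held 2 or 3 runs of at least 5 triplets each, the type IV chains 22 to 24 and the other chains 3 to 21.

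Several chain genes lie side by side. Col4a1 and Col4a2, which together form the common type IV collagen of all basement membranes, start head to head on chromosome 8 on opposite strands, and their first exons share 22 bases. That overlap is shown with 4 bases on each side because both genes rose in METTL3-HKD livers and reads there could come from either gene: GRCm38 chr8:11312801-11312830, plus strand, shared bases in capitals.
Col4a1 and Col4a2: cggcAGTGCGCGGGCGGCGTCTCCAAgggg
The overlap is 0.295% of the exon bases of Col4a1 and 0.332% of those of Col4a2. Col3a1 and Col5a2 lie 24614 bases apart on chromosome 1, end to end, and Col6a2 and Col6a1 lie 85161 bases apart on chromosome 10. Exons of other genes overlapped those of a tested chain by at most 1.44% (Col3a1), and those genes had means of at most 0.0588 FPKM. Col4a5 and Col4a6 are 1308 bases apart on the X chromosome and Col4a3 and Col4a4 are 71 bases apart on chromosome 1.

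Of the 44 chains, 21 averaged 0.1 FPKM or more over all livers and entered the test. FPKM counts fragments per length of gene and size of library. The length used here covers all annotated exon bases, such as 12426 for Col1a2 and 6563 for Col1a1. Levels of different genes can therefore be compared only roughly. Those tested were 7 of 11 fibrillar, 3 of 6 type IV and 11 of 27 other chains. The other 23 chains were at or near 0. Col2a1 (cartilage), Col9a1 (cartilage), Col6a4, Col19a1 and Col26a1 had 0 reads in all 8 livers, which allows up to 3 reads per liver, and Col10a1 and Col17a1 had 5 reads each over all livers. The highest of those left out were Col11a2 at a mean of 0.0935 FPKM and Col6a5 at 0.0880 FPKM, beside Col6a6 at 0.116 FPKM, the lowest chain tested. Col11a2 had 93 reads in all, up to 40 in a METTL3-HKD liver and up to 7 in a METTL3-Flox liver. Col4a6 had 43 reads in all, up to 23 in a METTL3-HKD liver and at most 1 in a METTL3-Flox liver. These low chains were not part of the main test. An alternative fit with no minimum level tested 39 chains. It called 5, Col18a1, Col4a1, Col4a2, Col15a1 and Col5a3, and none of the low chains, where 7.31% of all genes were called.

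Depth was 15861245 to 18434488 reads on genes per liver. METTL3-HKD livers 1 and 3 stood apart from the other 6: the summed level of 6 skeletal muscle markers (Acta1, Ckm, Myh1, Myh4, Mylpf and Tnnt3) was 66.1 and 116 FPKM there against 0.525 to 0.994 FPKM in the others. Hepatocyte markers summed to 22240 to 32648 FPKM in METTL3-HKD and 29134 to 33357 FPKM in METTL3-Flox. METTL3-HKD liver 1 held the highest value of all 8 livers for 13 of the 21 chains tested, and METTL3-Flox liver 1 the lowest for 8 of 21.

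Col4a1, Col4a2, Col12a1 and Col16a1 rose in METTL3-HKD livers, Col5a3, Col15a1 and Col18a1 fell, and the main fiber chains Col1a1, Col1a2 and Col3a1 did not pass the test. In all, 7 of 21 chains were called at an adjusted p under 0.05 (limma, Benjamini-Hochberg over the 16645 genes tested), which is 33.3%, against 15.7% of all genes tested. Of these, 4 were higher, where 9.05% of all genes were called higher, and 3 were lower, where 6.63% of all genes were. With a log2 fold change of at least 1 as well, 1 chain was upregulated (Col16a1; 4.70% of all genes) and 2 were downregulated (Col5a3 and Col15a1; 1.52% of all genes). All METTL3-HKD livers were above all METTL3-Flox livers for 3 chains (12.7% of all genes), below for 3 chains (9.95% of all genes), and the groups overlapped for 15. The median log2 fold change was 0.19 over the 21 chains, 15 of which were positive, and -0.00 over all genes tested. With METTL3-HKD livers 1 and 3 both left out, 5 chains were called, Col4a1, Col4a2 and Col16a1 higher and Col5a3 and Col15a1 lower, and the share of all genes called was 5.59%.

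**Figure D1:**
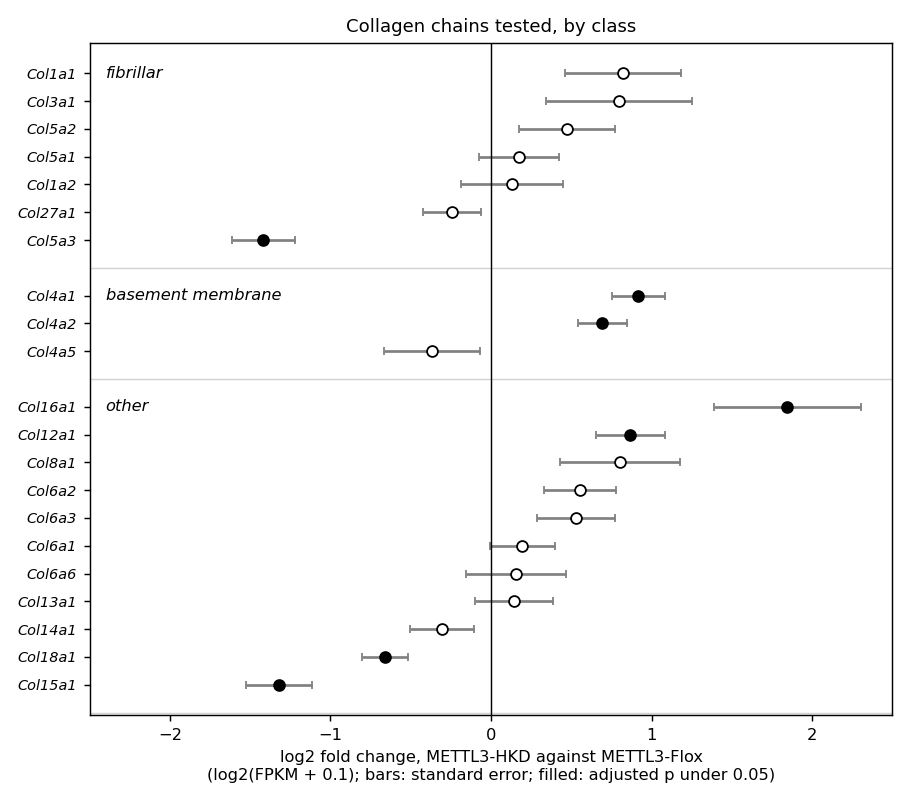
Log2 fold change of each of the 21 tested chains, METTL3-HKD against METTL3-Flox, on log2(FPKM + 0.1), by class, with the standard error as a bar and chains with an adjusted p under 0.05 filled. The 2 filled type IV chains lie at 0.92 and 0.69, the filled fibrillar chain Col5a3 at -1.42, and the 4 filled other chains between -1.32 and 1.84.

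By class, type IV had 2 of 3 tested chains higher and none lower, with a median log2 fold change of 0.69. Fibrillar chains had 1 of 7 lower and none higher, with a median of 0.18. Other chains had 2 of 11 higher and 2 of 11 lower, with a median of 0.19. Both multiplexins were lower, and 2 of 3 tested fibril-associated chains were higher. No test compared the classes with each other.

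Col4a1 (ENSMUSG00000031502, chr8:11198423-11312826, GRCm38, minus strand) encodes the alpha 1 chain of type IV collagen. It was at 24.4, 18.2, 13.3 and 16.2 FPKM in METTL3-HKD and at 9.64, 8.96, 8.98 and 9.47 FPKM in METTL3-Flox. The METTL3-Flox livers were nearly level (9.26 ± 0.342 FPKM, SD, n = 4), the METTL3-HKD livers were spread wider (18.0 ± 4.69, SD, n = 4), and the groups did not overlap. The log2 fold change was 0.92 with an SE of 0.164 and a limma adjusted p of 0.0107. An exact permutation test over the 70 arrangements of 4 against 4 livers (two-sided) gave p = 0.0286, the smallest it can give.

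Its partner Col4a2 (ENSMUSG00000031503, chr8:11312805-11449287, plus strand), the alpha 2 chain, was at 15.4, 12.03, 9.22 and 10.1 FPKM in METTL3-HKD and at 7.21, 7.46, 6.60 and 6.96 FPKM in METTL3-Flox. Again every METTL3-HKD liver was above every METTL3-Flox liver, and the order of the METTL3-HKD livers was the same as for Col4a1 (1, 2, 4, 3). The log2 fold change was 0.69 with an SE of 0.153 (limma adjusted p = 0.0203; exact permutation p = 0.0286). The call was lost without METTL3-HKD liver 2 (adjusted p = 0.0573), METTL3-Flox liver 3 (0.0642) or METTL3-Flox liver 4 (0.0543), with log2 fold changes of 0.66 to 0.69. In each liver Col4a1 stood above Col4a2, by a ratio of FPKM of 1.45 to 1.61 in METTL3-HKD and of 1.201 to 1.361 in METTL3-Flox.

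Col4a5, an alpha chain found in the basement membranes of kidney and some other tissues, was low, at 0.298 to 0.384 FPKM in METTL3-HKD and 0.251 to 0.838 FPKM in METTL3-Flox. Its groups overlapped (log2 fold change -0.37, SE 0.298, limma adjusted p = 0.433). Col4a3, Col4a4 and Col4a6 were below the level tested, with means of at most 0.0376 FPKM. Summed over the 6 type IV chains, the level was 23.0 to 40.3 FPKM in METTL3-HKD and 16.1 to 17.4 FPKM in METTL3-Flox.

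Fibrillar chains were low in both groups and varied from liver to liver. Col1a1 (ENSMUSG00000001506, chr11:94936224-94953042, plus strand) and Col1a2 (ENSMUSG00000029661, chr6:4504814-4541544, plus strand) encode the 2 chains of type I collagen, the main fiber of scar and tendon. Col1a1 was at 4.11, 1.73, 2.27 and 2.59 FPKM in METTL3-HKD and at 0.751, 2.66, 1.29 and 1.44 FPKM in METTL3-Flox. METTL3-Flox liver 2 was higher than METTL3-HKD livers 2, 3 and 4, so the groups overlapped. The difference did not pass the test (log2 fold change 0.82, SE 0.363, limma unadjusted p = 0.0497, limma adjusted p = 0.156, exact permutation p = 0.143).

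Col1a2 was at 2.40, 0.775, 1.10 and 1.39 FPKM in METTL3-HKD and at 0.940, 1.71, 0.985 and 1.23 FPKM in METTL3-Flox. Only METTL3-HKD liver 1 lay outside the range of the METTL3-Flox livers on the high side, and METTL3-HKD liver 2 was the lowest of all 8 (log2 fold change 0.13, SE 0.318, limma adjusted p = 0.814). The sign of this difference rested on 1 liver: without METTL3-HKD liver 1 it was -0.15 on the log2 scale. The ratio of Col1a1 to Col1a2 was 1.71 to 2.23 in METTL3-HKD and 0.798 to 1.56 in METTL3-Flox, so the ratio separated the groups where neither chain did. This ratio was looked at after the levels were seen and was not tested. Its size depends on the gene lengths used: over all livers Col1a2 had 2288 reads and Col1a1 1970.

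Col3a1 (ENSMUSG00000026043, chr1:45311538-45349706, plus strand), the type III chain of reticular fibers, was the highest fibrillar chain, at 12.1, 3.56, 3.51 and 6.93 FPKM in METTL3-HKD and at 1.73, 5.74, 3.52 and 3.12 FPKM in METTL3-Flox. METTL3-HKD livers 1 and 4 were above all METTL3-Flox livers and livers 2 and 3 were within their range. With an SD of 4.07 on a mean of 6.53 FPKM in METTL3-HKD and of 1.67 on 3.53 FPKM in METTL3-Flox, the difference did not pass the test (log2 fold change 0.80, SE 0.452, limma adjusted p = 0.257; exact permutation p = 0.200).

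Col5a3 (ENSMUSG00000004098, chr9:20770050-20815067, minus strand), a minor chain of type V collagen, was the one fibrillar chain called. It was at 0.562, 0.405, 0.699 and 0.695 FPKM in METTL3-HKD and at 1.57, 1.55, 2.21 and 1.61 FPKM in METTL3-Flox. The groups were far apart, 0.591 ± 0.139 against 1.74 ± 0.318 FPKM (SD, n = 4 each), on 51 to 88 and 152 to 229 reads per liver. It fell by 1.42 on the log2 scale with an SE of 0.196 (limma adjusted p = 0.00453; exact permutation p = 0.0286). Type V collagen regulates the diameter of fibers, and its other chains were not called. Col5a1 was at 0.881 to 1.43 FPKM in METTL3-HKD and 0.564 to 1.28 FPKM in METTL3-Flox (log2 fold change 0.18, limma adjusted p = 0.667). Col5a2 was at 0.553 to 1.36 and 0.415 to 0.858 FPKM (log2 fold change 0.47, limma adjusted p = 0.311).

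Col27a1 (ENSMUSG00000045672, chr4:63214004-63334991, plus strand), a fibrillar chain known from cartilage, was at 1.25, 1.496, 1.79 and 1.49 FPKM in METTL3-HKD and at 1.60, 1.37, 2.03 and 2.29 FPKM in METTL3-Flox (log2 fold change -0.24, SE 0.18, limma adjusted p = 0.387). The 2 groups overlapped. Summed over the 11 fibrillar chains, the level was 9.75 to 23.6 FPKM in METTL3-HKD and 7.64 to 15.3 FPKM in METTL3-Flox.

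**Figure D2:**
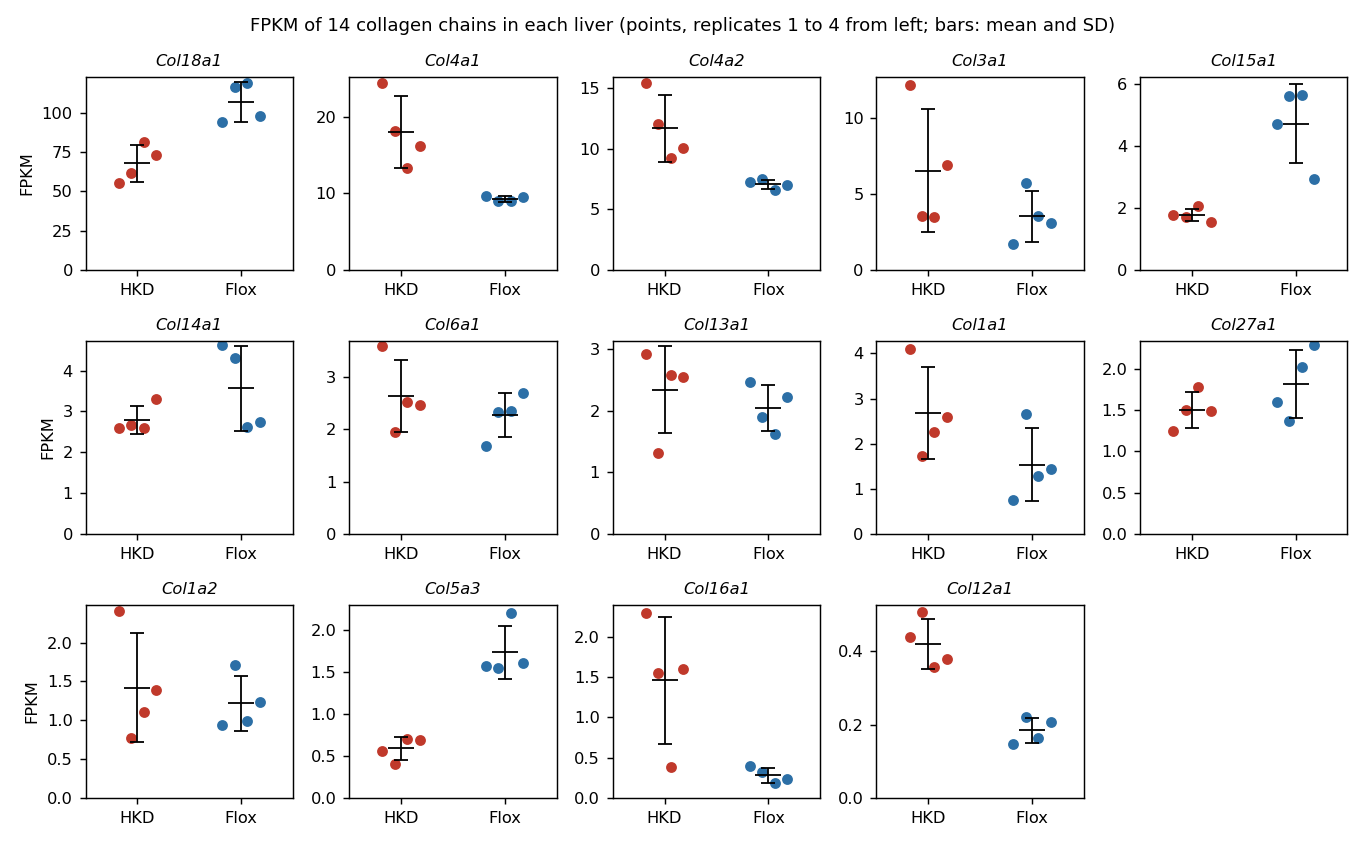
FPKM (vertical axis, from 0, a scale for each panel) of 14 chains in METTL3-HKD livers (red) and METTL3-Flox livers (blue), replicates 1 to 4 from left to right in each group, with mean and SD as black bars. They are the 12 chains with the highest mean and the 2 further called chains, Col16a1 and Col12a1; Col4a1, Col4a2 and Col12a1 show every red point above every blue point, and Col18a1, Col15a1 and Col5a3 the opposite.

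Among the other chains, Col18a1 (ENSMUSG00000001435, chr10:77052178-77166548, minus strand) had by far the highest level of all collagen chains in these livers. It encodes a multiplexin of basement membranes whose C-terminal fragment is endostatin, an inhibitor of blood vessel growth. It was at 55.2, 61.6, 81.1 and 73.1 FPKM in METTL3-HKD and at 93.7, 116, 119 and 97.9 FPKM in METTL3-Flox, on 7790 to 13194 reads per liver. Every METTL3-HKD liver was below every METTL3-Flox liver. It fell by 0.66 on the log2 scale with an SE of 0.142 (limma adjusted p = 0.0185; exact permutation p = 0.0286). The call was lost in 5 of 19 alternatives, with adjusted p of 0.0513 to 0.0605 there. They were scaling to reads on genes, omission of METTL3-HKD livers 1 and 3 together, and omission of METTL3-HKD liver 2, METTL3-Flox liver 2 or METTL3-Flox liver 3 alone.

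The other multiplexin, Col15a1 (ENSMUSG00000028339, chr4:47208161-47313167, plus strand), which also sits in basement membrane zones around vessels and muscle, was at 1.79, 1.72, 2.06 and 1.57 FPKM in METTL3-HKD and at 4.72, 5.62, 5.67 and 2.94 FPKM in METTL3-Flox. METTL3-Flox liver 4 was the lowest of its group and was still above every METTL3-HKD liver. It fell by 1.32 on the log2 scale with an SE of 0.206 (limma adjusted p = 0.00707; exact permutation p = 0.0286). Col15a1, Col5a3 and Col4a1 were called in all 19 alternatives.

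Since Col18a1 made up so much of the total, the makeup of the summed collagen FPKM differed between groups. Col18a1 was 40.5% to 63.4% of the sum over 44 chains in METTL3-HKD livers and 70.02% to 73.85% in METTL3-Flox livers. Type IV chains were 18.0% to 29.6% and 10.03% to 12.80%, and fibrillar chains were 8.57% to 17.3% and 5.71% to 9.21%. The sum itself was 114 to 136 FPKM in METTL3-HKD and 134 to 166 FPKM in METTL3-Flox, which overlapped. Without Col18a1 the sum was 46.8 to 80.9 and 40.1 to 49.3 FPKM, which overlapped as well. These shares add no evidence to the single-chain tests, which use the same values.

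**Figure D3:**
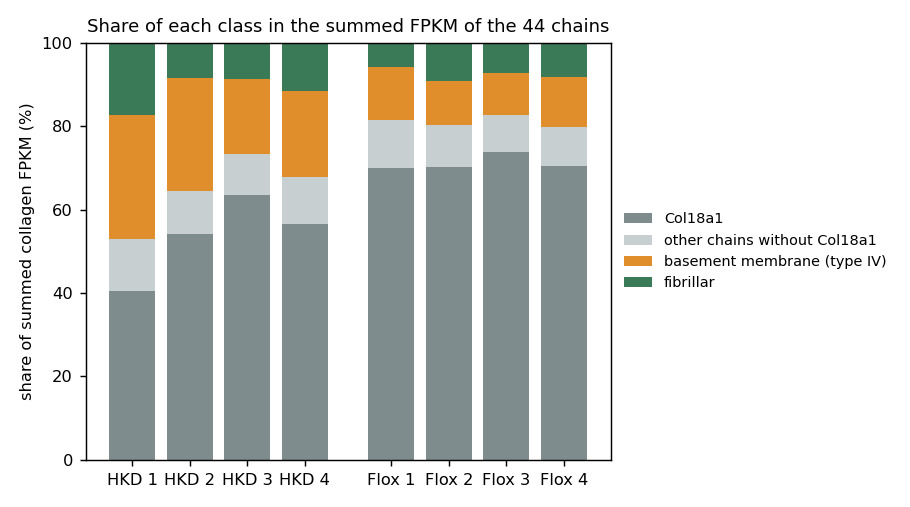
Share (%) of the summed FPKM of the 44 chains taken by Col18a1, by the other chains without Col18a1, by type IV chains and by fibrillar chains, as stacked bars for each liver. Col18a1 takes 40.5% to 63.4% of the bar in METTL3-HKD livers and 70.02% to 73.85% in METTL3-Flox livers.

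Fibril-associated collagens bind the surface of fibers. Col12a1 (ENSMUSG00000032332, chr9:79598991-79718831, minus strand) was at 0.437, 0.508, 0.356 and 0.378 FPKM in METTL3-HKD and at 0.148, 0.219, 0.164 and 0.208 FPKM in METTL3-Flox, on 98 to 143 and 32 to 54 reads per liver. All METTL3-HKD livers were higher than all METTL3-Flox livers. The log2 fold change was 0.87 with an SE of 0.214 (limma adjusted p = 0.0292; exact permutation p = 0.0286). With a replicate block the adjusted p was 0.0780, and leaving out any of 5 single livers (METTL3-HKD 1, 2 or 4, METTL3-Flox 3 or 4) put it between 0.0508 and 0.0703. It was 0.0521 with no minimum level and 0.0755 without METTL3-HKD livers 1 and 3.

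Col16a1 (ENSMUSG00000040690, chr4:130047840-130099283, plus strand) was at 2.29, 1.56, 0.385 and 1.60 FPKM in METTL3-HKD and at 0.396, 0.321, 0.185 and 0.230 FPKM in METTL3-Flox. METTL3-HKD liver 3 was just below METTL3-Flox liver 1, and the other METTL3-HKD livers were well above. The log2 fold change was 1.84 with an SE of 0.458 (limma adjusted p = 0.0296; exact permutation p = 0.0571). The adjusted p was 0.0518 with voom on rebuilt reads, 0.0542 with no minimum level, and 0.0671 to 0.0867 without METTL3-HKD liver 1, 2 or 4 or METTL3-Flox liver 2, 3 or 4.

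Col14a1 (ENSMUSG00000022371, chr15:55307750-55520803, plus strand), the third fibril-associated chain tested, was at 2.60, 2.67, 2.60 and 3.31 FPKM in METTL3-HKD and at 4.62, 4.32, 2.62 and 2.74 FPKM in METTL3-Flox. METTL3-Flox livers 1 and 2 were above all others and livers 3 and 4 were among the METTL3-HKD livers (log2 fold change -0.30, SE 0.201, limma adjusted p = 0.329; exact permutation p = 0.200). Col9a1, Col9a2, Col9a3, Col19a1, Col20a1 and Col22a1, which are known from cartilage and other specialised tissues, had means of at most 0.0678 FPKM.

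Type VI chains form the beaded filaments around cells, and none of the 4 tested was called. Col6a1 (ENSMUSG00000001119, chr10:76708792-76726168, minus strand) was at 3.59, 1.95, 2.53 and 2.46 FPKM in METTL3-HKD and at 1.69, 2.33, 2.34 and 2.69 FPKM in METTL3-Flox, with overlap (log2 fold change 0.19, SE 0.201, limma adjusted p = 0.544). Col6a2 was at 0.643 to 1.21 FPKM in METTL3-HKD and 0.431 to 0.695 FPKM in METTL3-Flox (log2 fold change 0.55, limma adjusted p = 0.124). Col6a3 was at 0.660 to 0.939 and 0.353 to 0.786 FPKM (log2 fold change 0.53, limma adjusted p = 0.172), and Col6a6 was at 0.0826 to 0.187 and 0.0474 to 0.142 FPKM (log2 fold change 0.16, limma adjusted p = 0.767). The ratio of Col6a1 to Col6a2 was 2.52 to 3.28 in METTL3-HKD and 3.37 to 4.42 in METTL3-Flox, again a description with no test.

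Col13a1 (ENSMUSG00000058806, chr10:61838236-61979108, minus strand), a transmembrane collagen, was at 2.91, 1.32, 2.58 and 2.55 FPKM in METTL3-HKD and at 2.46, 1.89, 1.61 and 2.23 FPKM in METTL3-Flox. METTL3-HKD liver 2 was the lowest of all 8 livers and liver 1 the highest (log2 fold change 0.14, SE 0.244, limma adjusted p = 0.725). Col8a1, a short-chain collagen of vessel walls, was at 0.113 to 0.539 FPKM in METTL3-HKD and 0.0588 to 0.144 FPKM in METTL3-Flox (log2 fold change 0.80, SE 0.373, limma adjusted p = 0.174).

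The 3 chains with the largest absolute log2 fold changes among those called are shown with the 250 bases before their RefSeq start on GRCm38, 5′ to 3′ on the strand of the gene. CCAAT and GGGCGG, 2 common promoter motifs (the GC box GGGCGG reads CCGCCC on the other strand), are in capitals. They were searched on both strands with the motif TATAAA and the AP-1 motif TGANTCA, and no matches overlapped. Col5a3 is chr9:20815068-20815317, minus strand, Col16a1 is chr4:130047590-130047839, plus strand, and Col15a1 is chr4:47207762-47208011, plus strand. The Col5a3 and Col16a1 windows adjoin the deposited gene starts. The deposited start of Col15a1 is further on, at 47208161, and the bases between were not searched.
Col5a3: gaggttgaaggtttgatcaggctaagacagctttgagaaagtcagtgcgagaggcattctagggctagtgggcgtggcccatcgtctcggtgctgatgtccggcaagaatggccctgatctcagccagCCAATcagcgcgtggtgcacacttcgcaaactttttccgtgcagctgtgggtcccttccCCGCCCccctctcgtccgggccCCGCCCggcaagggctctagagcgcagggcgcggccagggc
Col16a1: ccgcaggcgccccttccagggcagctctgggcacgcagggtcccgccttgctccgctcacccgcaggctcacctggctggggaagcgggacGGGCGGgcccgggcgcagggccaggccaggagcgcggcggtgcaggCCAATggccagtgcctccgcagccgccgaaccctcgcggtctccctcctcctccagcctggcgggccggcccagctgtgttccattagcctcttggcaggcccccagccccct
Col15a1: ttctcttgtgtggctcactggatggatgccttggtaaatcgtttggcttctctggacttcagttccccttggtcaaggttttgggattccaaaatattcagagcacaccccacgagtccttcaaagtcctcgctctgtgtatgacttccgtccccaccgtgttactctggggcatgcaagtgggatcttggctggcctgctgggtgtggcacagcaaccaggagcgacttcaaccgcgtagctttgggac
Col5a3, which fell, and Col16a1, which rose, both held CCAAT (from 122 and 113 bases before the start) and the GC box (from 63 and 41, and from 159 bases before), and Col15a1 held none of the 4 motifs. Of 32851 mouse promoter windows of this length, 33.8% held CCAAT, 32.7% the GC box, 12.4% TATAAA and 6.75% TGANTCA. A window was found for 17 of the 21 tested chains, 19 windows in all, of which 7 held CCAAT, 12 the GC box, 2 TATAAA (Col3a1 and Col13a1) and 1 TGANTCA (Col6a1). A match is a description of letters, not of binding.

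Genes that act on collagen were taken from lists, each with its count of tested members. The counts can be set against all genes tested, of which 9.05% were called higher and 6.63% lower. Of 18 tested genes for folding and modification of new chains, 2 rose and 2 fell, 22.2% in either direction against 15.7% of all genes (median log2 fold change 0.20). Serpinh1, the collagen-specific chaperone HSP47, was at 22.3, 13.3, 11.1 and 14.2 FPKM in METTL3-HKD and at 7.81, 7.88, 6.00 and 7.35 FPKM in METTL3-Flox, with no overlap (log2 fold change 1.02, limma adjusted p = 0.0142). P4ha1, a prolyl hydroxylase subunit, rose by 0.62 on the log2 scale (adjusted p = 0.0303). Plod1, a lysyl hydroxylase, fell by 0.46 on the log2 scale (adjusted p = 0.0132), and Ppib, a prolyl isomerase, fell by 0.55 (adjusted p = 0.0427). Scaling to reads on genes turned this split from 2 higher and 2 lower into 5 higher and 0 lower. With METTL3-HKD livers 1 and 3 both left out it was 1 higher and 0 lower, and with METTL3-HKD liver 1, 2 or 4 or METTL3-Flox liver 2, 3 or 4 left out it was 1 and 1, P4ha1 and Ppib being lost (P4ha1 adjusted p of 0.0522 to 0.0867 there).

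Of 12 tested genes for propeptide removal and cross-linking, 2 rose and 1 fell, 25.0% in all (median log2 fold change 0.21). Lox, the lysyl oxidase that starts cross-links between collagen chains, was at 1.90, 0.439, 0.598 and 0.761 FPKM in METTL3-HKD and at 0.117, 0.283, 0.150 and 0.0904 FPKM in METTL3-Flox (log2 fold change 1.84, limma adjusted p = 0.0218). The call of Lox was lost in 5 of 18 alternatives. It was lost without METTL3-Flox liver 3 (adjusted p = 0.0623) or 4 (0.0605) and without METTL3-HKD livers 1 and 3 together (0.0812). A replicate block (0.0572) and a pseudocount of 1 FPKM (0.0528, log2 fold change 0.68) lost it as well. Tgm2, a transglutaminase, was at 56.1 to 81.0 FPKM in METTL3-HKD and 27.1 to 37.9 FPKM in METTL3-Flox (log2 fold change 0.92, adjusted p = 0.00821). Bmp1, the enzyme that removes the C-propeptide of fibrillar procollagen, was at 7.86 to 10.7 and 13.1 to 14.2 FPKM (log2 fold change -0.57, adjusted p = 0.0128).

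Of 16 tested genes of collagen degradation, 7 rose and 0 fell, 43.8% in all (median log2 fold change 0.80). The number that rose was 6 or 7 with any single liver left out and 5 with voom on rebuilt reads, where Mmp13 and Mmp10 were not called. Mmp13, a collagenase that cuts fibrillar collagen, was at 65.4, 73.2, 2.17 and 36.1 FPKM in METTL3-HKD and at 0.0790, 0.278, 0.221 and 0.00 FPKM in METTL3-Flox (limma adjusted p = 0.00595). METTL3-HKD liver 3 was much lower than the other METTL3-HKD livers and still above METTL3-Flox. Mmp3 and Mmp10, the stromelysins, were at 2.61 to 25.2 and 1.70 to 18.3 FPKM in METTL3-HKD. In METTL3-Flox Mmp3 had 0 to 10 reads per liver and Mmp10 had 0 reads in all 4 livers, so that against a floor of 3 reads per liver the METTL3-HKD level of Mmp10 was at least 106-fold higher. Mmp8, the neutrophil collagenase, was at 18.9, 2.95, 2.79 and 4.04 FPKM in METTL3-HKD and 0.128 to 0.384 FPKM in METTL3-Flox (log2 fold change 3.83, adjusted p = 0.00595). With Mmp10 at its bound the median of the list was the same, 0.80.

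Of 6 tested inhibitors of matrix-degrading enzymes, 1 fell and 0 rose, and 3 more were higher at an unadjusted p under 0.05. With voom, scaling to reads on genes, protein-coding genes only, a minimum mean of 1 FPKM or METTL3-HKD liver 3 left out, 1 was called higher. A2m, a broad protease inhibitor of plasma, fell by 2.23 on the log2 scale, from 3.64 to 18.7 FPKM in METTL3-Flox to 1.00 to 3.58 FPKM in METTL3-HKD (limma adjusted p = 0.0264). That call was lost in 7 of 19 alternatives, among them METTL3-HKD livers 1 and 3 left out (adjusted p = 0.101) and any of METTL3-HKD 2, 3 or 4 or METTL3-Flox 2 or 3 left out (0.0504 to 0.0815). Of 7 tested collagen receptors, 2 rose: Ddr1, a receptor tyrosine kinase for collagen (log2 fold change 0.70, adjusted p = 0.0454), and Itgb1, the beta 1 integrin (log2 fold change 0.49, adjusted p = 0.0271). The other 5 tested receptors were not called. None of the receptors was called without METTL3-HKD livers 1 and 3 or without METTL3-HKD liver 1 or 2 or METTL3-Flox liver 2, 3 or 4 alone. The same held with no mean-variance trend and with a replicate block.

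**Figure D4:**
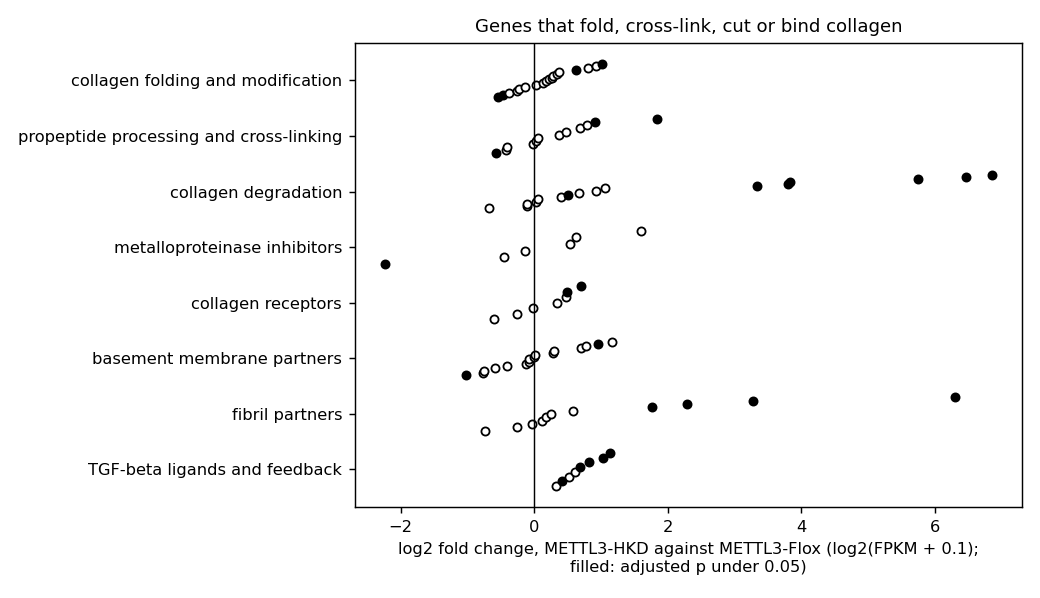
Log2 fold change (horizontal axis, METTL3-HKD against METTL3-Flox, on log2(FPKM + 0.1)) of every tested gene of 8 lists of collagen-related genes, filled where the adjusted p was under 0.05. In the degradation list 7 of 16 points are filled, all above 0, and in the basement membrane list 2 of 16 are filled, 1 on each side of 0. Values at the far right rest on METTL3-Flox levels near 0 and depend on the pseudocount.

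Of 16 tested basement membrane partners of type IV collagen, 1 rose and 1 fell, 12.5% in either direction (median log2 fold change -0.04). At an unadjusted limma p under 0.05, 5 were higher and 4 lower. With array weights, protein-coding genes only, voom, or without METTL3-HKD liver 3 or METTL3-Flox liver 1, 2 were called lower. Scaling to reads on genes gave 2 higher and 0 lower. Nid1, nidogen 1, which links laminin to type IV collagen, was at 11.8, 8.07, 8.01 and 8.32 FPKM in METTL3-HKD and at 3.73, 4.47, 4.46 and 5.71 FPKM in METTL3-Flox (log2 fold change 0.96, limma adjusted p = 0.00939). Lama1, a laminin chain, was at 0.123 to 0.252 and 0.342 to 0.614 FPKM (log2 fold change -1.03, adjusted p = 0.0283). With METTL3-HKD livers 1 and 3 both left out, the adjusted p of Nid1 was 0.0502 and that of Lama1 0.0688, and none of the 16 was called. The log2 fold change of Nid1 was 0.83 to 1.17 over the 19 alternatives. Without METTL3-HKD liver 1, 2 or 4 or METTL3-Flox liver 2, 3 or 4 alone, Lama1 was not called (adjusted p of 0.0579 to 0.0687).

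Of 11 tested partners of fibers, 4 rose and 0 fell, 36.4% in all (median log2 fold change 0.25), and 2 to 4 rose with any single liver left out. Thbs1, thrombospondin 1, was at 179, 32.9, 20.4 and 63.0 FPKM in METTL3-HKD and at 0.127, 1.89, 1.03 and 0.286 FPKM in METTL3-Flox (log2 fold change 6.30, limma adjusted p = 0.00378). Tnc, tenascin C, was at 0.862 to 3.46 and 0.0453 to 0.161 FPKM (log2 fold change 3.27, adjusted p = 0.00301), and Vcan, versican, was at 0.387 to 1.94 and 0.0146 to 0.137 FPKM (log2 fold change 2.29, adjusted p = 0.0167). Fmod, fibromodulin, was at 0.376 to 2.05 and 0.113 to 0.393 FPKM, which overlap (log2 fold change 1.76, adjusted p = 0.0423).

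TGF-beta is the best known inducer of collagen genes in liver. Of 8 tested ligands, receptors and feedback genes, 5 rose and 0 fell, 62.5% in all (median log2 fold change 0.65). This count was 0 without METTL3-HKD liver 1 and 1 without METTL3-HKD liver 2 or 4 or METTL3-Flox liver 3 or 4. It was 2 without METTL3-Flox liver 2, with a replicate block or with no minimum level. The 4 with the largest log2 fold changes were Tgfb3 (1.13, limma adjusted p = 0.0295), Tgfb2 (1.04, 0.0455), Skil, a repressor of SMAD signaling (0.82, 0.0176), and Tgfbr2 (0.69, 0.0386). Tgfb2 and Tgfb3 were below 1 FPKM in every liver. With METTL3-HKD livers 1 and 3 both left out, 1 gene of this list was called.

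Markers of the cells that make collagen moved in both directions. Fewer cells of a type and less RNA per cell cannot be told apart in whole liver. The marker counts here and below can be set against all genes tested, of which 9.05% were called higher and 6.63% lower. Of 11 stellate cell markers, 3 fell and 2 rose. Lrat, the enzyme that stores vitamin A in these cells, had a log2 fold change of -0.88 (limma adjusted p = 0.0265), Colec11 of -1.34 (adjusted p = 0.0153) and Hand2 of -0.89 (adjusted p = 0.0455). Hgf had a log2 fold change of 0.58 (adjusted p = 0.0304) and Des, desmin, of 1.49 (adjusted p = 0.0491). Skeletal muscle also expresses Des, which was at 7.75 and 8.05 FPKM in METTL3-HKD livers 1 and 3 and at 2.18 and 2.41 FPKM in livers 2 and 4. The stellate list summed to 45.8 to 61.9 FPKM in METTL3-HKD and 51.2 to 98.9 FPKM in METTL3-Flox. With METTL3-HKD livers 1 and 3 left out none of its markers was called, where 5.59% of all genes were. With any single liver left out, 0 or 1 of its markers rose and 1 to 3 fell, and with scaling to reads on genes 2 rose and 1 fell.

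The fibroblast list summed to 10.7 to 38.4 FPKM in METTL3-HKD and 5.71 to 14.3 FPKM in METTL3-Flox, with 1 of 9 tested markers called, Pi16 (log2 fold change 2.52, limma adjusted p = 0.00761), and 4 of 9 called higher with scaling to reads on genes. Of the 9, 8 had a positive log2 fold change (median 0.81), and 5 were higher at an unadjusted limma p under 0.05. Smooth muscle and myofibroblast markers summed to 2.82 to 15.9 and 1.19 to 4.37 FPKM, with 0 of 6 called by limma and 1 at an unadjusted p under 0.05. All 6 had a positive log2 fold change (median 1.17). Of 9 sinusoidal endothelial markers 4 fell, with Dnase1l3 at 3.95 to 4.92 FPKM in METTL3-HKD and 7.79 to 8.23 FPKM in METTL3-Flox (log2 fold change -0.78, adjusted p = 0.00357). Oit3 fell by 0.53 on the log2 scale (adjusted p = 0.0133), Gpr182 by 0.38 (adjusted p = 0.0401) and Stab1 by 0.36 (adjusted p = 0.0472). With scaling to reads on genes 1 of the 9, Dnase1l3, was called lower, and with any single liver left out 2 or 3 were. The list summed to 71.7 to 78.0 FPKM in METTL3-HKD and 85.0 to 97.1 FPKM in METTL3-Flox. Vascular endothelial markers summed to 21.1 to 29.3 and 18.0 to 21.3 FPKM, with 0 of 8 called by limma and 1 at an unadjusted p under 0.05.

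Biliary markers summed to 119 to 369 FPKM in METTL3-HKD and 52.5 to 77.7 FPKM in METTL3-Flox, with 5 of 6 higher. The highest sum was mostly 1 marker, at 355 FPKM. Mesothelial markers summed to 2.02 to 8.11 and 1.18 to 2.07 FPKM, with 2 of 5 higher. With any single liver left out, 2 to 5 biliary and 0 to 4 mesothelial markers were called higher. In those fits 6.51% to 16.7% of all genes were called in either direction. Of all genes tested, 9.05% were called higher and 6.63% lower. Neutrophil markers summed to 330 to 1615 and 12.9 to 44.5 FPKM, with 7 of 8 higher. Mmp8 is in both the neutrophil and the degradation list. Kupffer cell markers summed to 89.5 to 186 and 185 to 460 FPKM, with 4 of 7 lower. Of these Kupffer cell markers, 0 were called lower with scaling to reads on genes or without METTL3-HKD liver 3 or 4 or METTL3-Flox liver 3 or 4 alone. Epidermal markers summed to 1.13 to 2.35 and 0.591 to 0.971 FPKM, with 0 of 3 tested called by limma and 1 at an unadjusted p under 0.05, and Krt1 had 0 reads in all livers. Of 7 hepatocyte markers, 0 had a positive log2 fold change (median -0.47, from -0.79 to -0.03), and 1 was called. That was Hnf4a, which fell by 0.48 on the log2 scale (limma adjusted p = 0.0187). Its call was lost with scaling to reads on genes (0.191) and without METTL3-Flox liver 3 (0.0583) or 4 (0.0503). With METTL3-HKD livers 1 and 3 both left out, 7 neutrophil and 3 biliary markers were still called higher and 2 sinusoidal endothelial markers lower, against 0 mesothelial, 0 Kupffer cell and 0 hepatocyte markers in either direction. The share of all genes called was 5.59% in that smaller fit, against 15.7% with all livers. The part of these cell types in the chain levels was not tested.

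**Figure D5:**
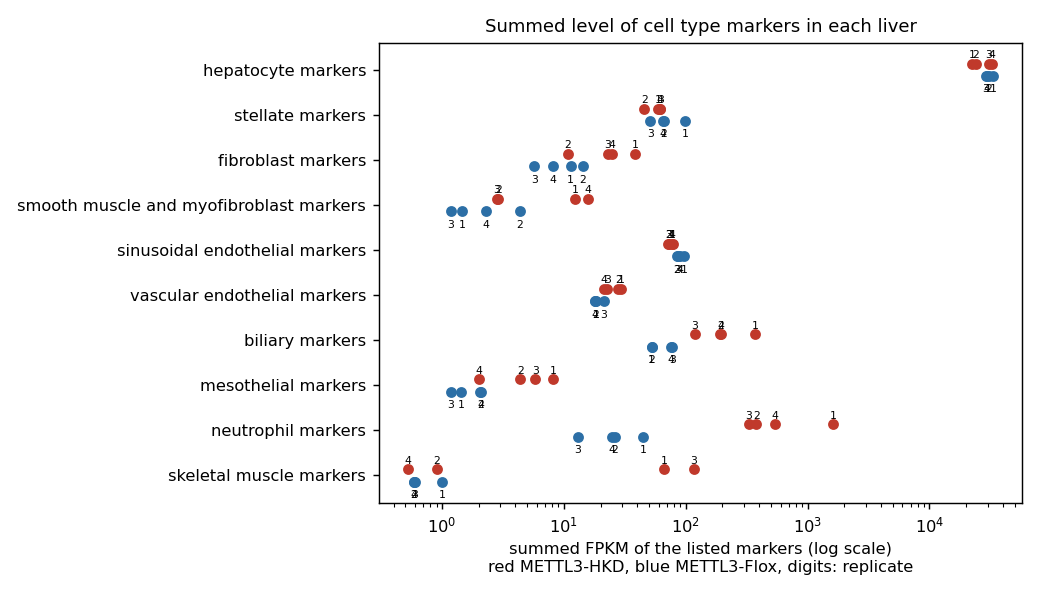
Summed FPKM (log axis) of 10 marker lists in each liver, METTL3-HKD in red and METTL3-Flox in blue, with the replicate number beside each point. Skeletal muscle markers set METTL3-HKD livers 1 and 3 apart (66.1 and 116 FPKM against at most 0.994 FPKM elsewhere), and neutrophil markers are at 330 to 1615 FPKM in METTL3-HKD and 12.9 to 44.5 FPKM in METTL3-Flox.

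METTL3-HKD liver 1, the highest of all livers for most chains, was also the highest for fibroblast, vascular endothelial, biliary, mesothelial and neutrophil marker sums. Col4a1 without that liver was called, as in all other alternatives. The log2 fold change of Col4a1 ranged from 0.76 to 1.13 over the 19 alternatives and its adjusted p was 0.0395 at most.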

How the data were processed

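RNA-seq of liver from 4 METTL3-HKD and 4 METTL3-Flox mice was used, grouped by the sample labels. The authors deposited FPKM per gene with gene lengths. GRCm38 and mm10 are named in the submitters' processing notes, and coordinates matched GENCODE M21 for all 44 chains. The aligner, counter and strand setting are not given in the sources used here, and libraries were made with a SMARTER mRNA-Seq kit. FPKM times length gave whole reads (within 0.05) for all non-zero values, so depth and floors come from these rebuilt reads and cover counting error only. FPKM had been scaled between libraries before deposition.

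The 16645 genes averaging 0.1 FPKM or more were compared on log2(FPKM + 0.1) with limma 3.58.1 (lmFit, eBayes with trend, two-sided) in R 4.3.3, after a test on simulated data, with Benjamini-Hochberg adjustment over all of them. The pseudocount understates changes of low genes. Exact permutation tests of FPKM were computed over all arrangements with numpy 2.4.6 in Python 3.11.15. With 4 livers per group, precision is limited by the spread between livers.

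Full values are given for Mettl3, for called chains and for the 12 chains with the highest mean. One gene of the related lists is not reported here. The lists name up to 4 called members in each direction. The chains, classes and lists were chosen with earlier results of these data known. Ratios of chains were chosen after values were seen. Alternatives were another pseudocount, minimum level, scaling, trend, weights, gene set, voom, a replicate block and each liver left out. Promoter windows are from RefSeq on GRCm38.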

Additional observations from a re-analysis of the deposited data

Results flagged for a closer look

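In a group of 4 livers, a value was singled out where its gap to the nearest other liver took up more of the group's range than Dixon's test allows at the 95% level. The 140 groups of 4 were the 21 tested chains and the called genes picked from the lists, in METTL3-HKD and METTL3-Flox. Among them 12 values were singled out, where chance gives about 1 in 20 groups. Of the chains, Col5a3 was at 2.21 FPKM in METTL3-Flox liver 3, with a gap of 0.922 of the range, and Col14a1 was at 3.31 FPKM in METTL3-HKD liver 4, with a gap of 0.899. Col5a3 stayed called without that liver.

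METTL3-HKD liver 1 stood apart for Tgm2 (81.0 FPKM), Mmp8 (18.9 FPKM), Nid1 (11.8 FPKM), Vcan (1.94 FPKM), Tgfb3 (0.867 FPKM), S100a8 (519 FPKM) and Retnlg (175 FPKM). METTL3-Flox liver 1 stood apart for Clec4f (103 FPKM) and Vsig4 (38.8 FPKM), both Kupffer cell markers, and METTL3-Flox liver 2 for Pi16 (0.124 FPKM).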

How the results depend on the processing

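Each count and each log2 fold change was recomputed under up to 19 alternatives, 1 of them, the omission of METTL3-HKD livers 1 and 3 together, chosen after the data were seen. Over the 21 chains, 362 of the log2 fold changes recomputed kept sign and side of the threshold, 24 kept the sign but lost the call, and 5 changed sign. No chain gained a call. The count of chains higher in METTL3-HKD was 4, became 2 with a minimum mean of 1 FPKM and 2 with no minimum, and ranged from 1 to 4 with each liver left out. The count of upregulated chains was 1, became 0 with a pseudocount of 1 FPKM, 0 with a minimum mean of 1 FPKM and 0 with no minimum, became 3 with scaling to reads on genes, and ranged from 0 to 2 with each liver left out. The count of downregulated chains was 2 and became 1 with a pseudocount of 1 FPKM. Chains called with each liver left out are given here with the share of all genes called, which was 15.7% with all livers. There were 3 without METTL3-HKD 2 (8.34%) or METTL3-Flox 3 (6.51%), and 4 without METTL3-Flox 4 (8.45%). There were 5 without METTL3-HKD 1 (7.40%), METTL3-HKD 4 (10.8%) or METTL3-Flox 2 (8.52%). There were 7 without METTL3-HKD 3 (16.7%) or METTL3-Flox 1 (14.75%). The calls over all genes fell from 2610 to 1084 without METTL3-Flox 3. Sign changes, none of them in a called chain, were Col1a2 (-0.15 to 0.36 with each liver left out, -0.17 without METTL3-HKD 1 and 3), Col5a1 (-0.046 to 0.31 with each liver left out), and, without METTL3-HKD 1 and 3, Col6a1 (-0.027) and Col13a1 (-0.13). Scaling to reads on genes moved the median over all genes from -0.00 to 0.19 (log2 fold change) and Mettl3 to 0.047, and no chain changed sign under it. Over Mettl3 and the called genes picked from the lists, some of them not named here, 248 of the recomputed values lost the call. Of these values 1, that of Mettl3, changed sign. Serpinh1, Tgm2, Bmp1, Mmp3, Mmp8, Thbs1, Tnc, Pi16, Dnase1l3, S100a8 and Retnlg were called in all their alternatives, while the other genes named with a call lost it in 13 (Ppib, Fmod), 12 (Des, Gpr182), 11 (Ddr1, Hand2, Stab1, Clec4f), 10 (Tgfb2, Tgfbr2), 9 (Lama1), 8 (P4ha1, Itgb1, Hgf, Tgfb3, Vsig4), 7 (A2m, Lrat), 5 (Lox, Hnf4a), 3 (Skil), 2 (Plod1, Vcan, Colec11, Oit3) or 1 (Mmp13, Mmp10, Nid1) of 18 or 19. The causes were not tested.

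Same-numbered livers are not stated to be paired, and their deviations from the group means correlated at 0.07, -0.08, -0.01 and -0.03 for numbers 1 to 4. With a replicate block 3 chains were higher, 3 lower, 1 upregulated and 2 downregulated, with Col12a1 no longer called, and 1616 genes were called in all. METTL3-Flox reads at or near 0 (Mmp10, Mmp3 and Mmp13) limit the size of those differences, not their direction.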
